A study of Homo sapiens with 12 samples.

Results

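The deposited transcript table of PC3 cells lists, beside known transcripts, rows whose identifiers begin with BGIR. These rows have no RefSeq (NM, NR, XM, XR), RNAcentral (URS) or circular RNA accession. The members described here were chosen by their expected counts: the BGIR rows with a sum of at least 50 over the 12 libraries. This rule kept 4032 of 21338 BGIR rows (18.9%), out of 177700 linear transcript rows and 221796 rows in all. Because counts chose the members, their abundance is a description. The label of transcripts outside public catalogues held for the row identifier but not for the gene: 2896 members lay in a gene that also had a RefSeq row, and 1136 did not. PC3 is a human prostate cancer line that grows without androgen, and the labels give its genotype as wild type. Each of 4 groups had 3 libraries: BLANK cells received PBS, AgNPs cells silver nanoparticles alone, DOC cells DOC alone, and COM cells both agents. What DOC stands for, the doses, the times and any batches are not in the labels. Nothing says whether the replicates were separate cultures, so p-values measure the spread between these libraries, which may be technical.

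One gene can give many transcripts, through alternative start sites, splicing, retained introns and alternative ends, and RNA catalogues list only some of them. Many such extra transcripts come from long noncoding RNA genes, from antisense and readthrough units, or from repeated gene families whose copies are hard to tell apart by short reads. RSEM, named in the submitters' processing notes, divides reads that fit several transcripts among them by estimation, so the count of one row depends on the other rows of its gene. Silver nanoparticles are known to release silver ions, which bind thiols and disturb the redox balance of cells.

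The sequences and positions of the BGIR rows themselves were not used here. Shown instead are RefSeq sequences (GRCh38.p14) of host genes that the results turn on. The first 2 lines give, 5′ to 3′, the window from 250 bases before to 50 bases after the annotated start of NBPF1 (chr1:16613515-16613814, minus strand) and of LOC101930053 (chr9:2506487-2506786, minus strand). Each of these genes held at least a pair of members that rose together. Both strands were searched for the antioxidant response element core TGACNNNGC, the C/EBP-ATF element core TGATGNAA and the metal response element core TGCACNC or TGCGCNC. Capitals mark the 1 match found, a metal response element core in NBPF1 that starts 167 bases before the start site. These letters stood in 13.3%, 3.62% and 29.6% of 35116 RefSeq promoters of the same length, in that order, and a match is only a match of letters. The LOC101930053 window held none of the 3. The last 3 lines give mature microRNAs that lie inside the host genes MIRLET7BHG (let-7a, chr22:46112752-46112773, and let-7b, chr22:46113691-46113712, both plus strand) and MIR210HG (miR-210, chr11:568112-568133, minus strand). Capitals mark the seed, bases 2 to 8, which let-7a and let-7b share.
NBPF1 promoter: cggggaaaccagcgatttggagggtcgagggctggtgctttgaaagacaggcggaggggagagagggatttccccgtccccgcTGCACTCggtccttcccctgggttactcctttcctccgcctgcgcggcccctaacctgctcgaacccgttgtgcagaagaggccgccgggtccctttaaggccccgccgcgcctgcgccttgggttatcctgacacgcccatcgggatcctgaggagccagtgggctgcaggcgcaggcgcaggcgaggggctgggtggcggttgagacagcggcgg
LOC101930053 promoter: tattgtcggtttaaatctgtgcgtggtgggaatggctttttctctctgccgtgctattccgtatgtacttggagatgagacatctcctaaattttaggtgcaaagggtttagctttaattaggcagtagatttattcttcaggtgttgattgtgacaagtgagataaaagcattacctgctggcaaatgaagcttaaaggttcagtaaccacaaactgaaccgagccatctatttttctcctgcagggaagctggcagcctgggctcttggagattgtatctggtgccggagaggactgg
hsa-let-7a-5p: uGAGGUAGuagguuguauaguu
hsa-let-7b-5p: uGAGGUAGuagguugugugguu
hsa-miR-210-3p: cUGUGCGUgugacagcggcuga

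Depth differed between groups: linear counts per library lay between 10996446 and 22769479, lowest in COM and highest in BLANK. A count of 3 corresponded to 0.132 to 0.273 CPM, a row's count relative to all linear counts of its library, counting error only. Among markers of PC3 cells, the keratin genes KRT8 and KRT18 lay between 149 and 196 CPM and between 195 and 247 CPM over the 12 libraries, EPCAM between 6.50 and 12.03 CPM and CDH1 between 2.36 and 3.89 CPM. VIM, a mesenchymal gene also known in PC3, averaged 863 CPM in BLANK and 756 in COM, and CD44 314 and 377. Summed fibroblast markers lay between 82.9 and 89.3 CPM in COM, 94.9 and 106 in AgNPs, 115 and 129.5 in DOC and 113 and 126 in BLANK, with DCN and LUM at or below 0.0909 CPM. The lower sum in COM came from COL1A2, which averaged 90.64 CPM in BLANK and 52.02 in COM. COL1A1 (15.06 and 19.33 CPM) and COL3A1 (0.676 and 1.33 CPM) went the other way. PDGFRA hardly differed (14.59 and 14.04 CPM), so the fibroblast markers did not fall as a set. Summed immune markers lay between 41.0 and 45.1 CPM in BLANK, 38.5 and 44.7 in AgNPs, 49.2 and 50.4 in DOC and 48.6 and 56.6 in COM, nearly all from CD68, with PTPRC at or below 0.104 CPM. Their part in any result was not tested. In bulk RNA, fewer cells of a type and less RNA per cell cannot be told apart.

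The members belonged to 3068 genes. Protein-coding genes hosted 2096 members (1587 genes), genes known only by a BGIG identifier hosted 871 (772 genes), long noncoding RNA (lncRNA) genes 833 (569 genes), pseudogenes and other types 128, and Entrez genes without a symbol 104. A single member was found in 2551 genes, and LOC105375630 had the most, 24. For 636 members the BGIR row was the only linear row of its gene, and 1150 held over 50% of the counts of their gene. In protein-coding genes the median member held 2.82% of the gene's counts and 143 of 2096 (6.82%) held over 50%, while in lncRNA genes the median share was 18.1%. The members were mostly scarce: the median summed count was 152 (quartiles 81 and 395), and 1666 reached a mean of 1 CPM. The most abundant member alone held 14.5% of all member counts, the top 3 held 32.2% and the top 100 held 59.8%. Just below the threshold lay rows of BGIG9606_56737, MIR4435-2HG and LINC02362, with 49.92, 49.95 and 49.98 counts, and just inside it rows of BGIG9606_67745, DRC8 and TLCD3A, with 50 each.

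FPKM divides a row's count by its length and the depth, so counts and FPKM together give an effective length. For the 2245 of 4032 members with at least 1 FPKM the implied length had a median of 864 bases (quartiles 490 and 1622). RefSeq and URS rows that passed the same sum and FPKM had medians of 2999 and 1047 bases. A scarce row reaches 1 FPKM only if it is short. The median summed count was 152 for members, 433 for RefSeq rows and 189 for URS rows with that sum. These medians therefore do not compare lengths at equal level. A smaller set was very long: 104 members exceeded 5000 bases and 31 exceeded 10000. The longest were rows of NHSL1 (106321 bases), an actin-remodelling protein of the Nance-Horan family, and of PTPN14 (44075 bases), a tyrosine phosphatase. Rows of ATP2B1, a plasma membrane calcium pump (43298 bases), and RBPMS, an RNA-binding protein (42075 bases), followed. Their host genes span 271170, 202903, 121318 and 187716 bases in RefSeq. For 22 of 1743 members (1.26%) with both values, the implied length was longer than the whole RefSeq gene, so an implied length is not a measured one.

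All BGIR rows together took 1.71% ± 0.05 (SD, n = 3) of linear counts in BLANK, 1.72% ± 0.05 in AgNPs, 1.82% ± 0.01 in DOC and 1.73% ± 0.02 in COM. The difference was 0.103 percentage points for DOC against BLANK and -0.0856 for COM against DOC, with no overlap of libraries. Both differences had p = 0.1 in two-sided exact permutation tests, the smallest p that 3 against 3 allows. AgNPs and COM overlapped with BLANK (exact permutation p = 1.0 and 0.8). On FPKM sums, which divide by length, the difference of DOC from BLANK was 0.0209 percentage points (exact permutation p = 0.9) and that of COM from DOC -0.125 (exact permutation p = 0.1). Without the 3 most abundant rows, the shares were 1.15% in BLANK, 1.19% in AgNPs, 1.25% in DOC and 1.27% in COM, and AgNPs, DOC and COM each lay above BLANK without overlap (exact permutation p = 0.1 each). COM and DOC then overlapped (exact permutation p = 0.2). Over the same libraries the URS share went from 11.7% in BLANK to 14.4% in COM, and the RefSeq share from 86.6% to 83.8%.

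**Figure D1:**
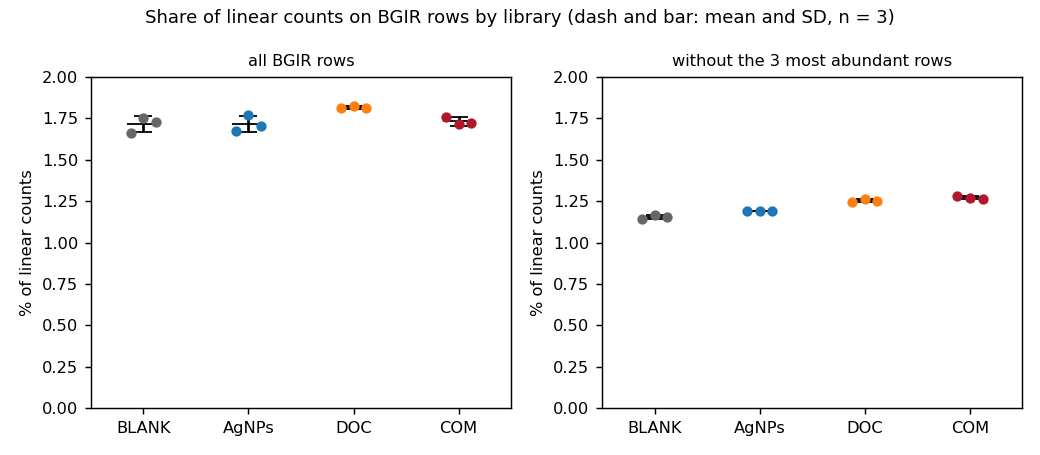
Share of linear counts on BGIR rows (y axis, percent) in each of the 12 libraries, by group (x axis), with all rows on the left and without the 3 most abundant rows on the right. Points are libraries, dashes and bars are the mean and SD (n = 3). With all rows DOC stands highest at 1.82%, and without the top 3 rows COM (1.27%) and DOC (1.25%) overlap, both above BLANK at 1.15%.

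The 12 most abundant members included a pair from NEMF, whose protein takes part in ribosome quality control, and a pair from BGIG9606_53846, an unnamed gene. The NEMF row BGIR9606_358472 (gene at chr14:49782083-49852788, GRCh38.p14) stood at 2242, 2965 and 2767 CPM in BLANK, 2149, 2973 and 2682 in AgNPs, 2305, 2240 and 2166 in DOC, and 1997, 1979 and 2008 in COM. All COM libraries lay below every other library, while BLANK and AgNPs spread widely. Against BLANK the COM level fell by 0.47 ± 0.12 on the log2 scale (SE; edgeR's quasi-likelihood test, Benjamini-Hochberg adjusted p = 0.0445). This call was lost in 9 of 12 fits that left out 1 library, with an adjusted p of up to 0.162: all but those without BLANK 1, AgNPs 1 or AgNPs 2. The second NEMF row, BGIR9606_358490, was not called in any comparison. BGIR9606_392233, of BGIG9606_53846, averaged 2123 ± 111 CPM (SD, n = 3) in BLANK, 1897 ± 107 in AgNPs, 2625 ± 89.8 in DOC and 1967 ± 49.8 in COM. It was lower in COM than in DOC (log2 -0.43 ± 0.05, adjusted p = 0.0016, edgeR) and was not called against BLANK. The other rows of that gene averaged 24334 CPM in DOC and 27610 in COM. Other abundant members were a POLR2J4 row at 199 to 216 CPM in the group means, a CHORDC1 row at 142 to 178 (an HSP90 co-chaperone) and an ELAPOR1 row at 100 to 109 that held about all counts of its gene (99.3% in BLANK). The NHSL1 and PTPN14 rows, the longest by implied length, rose in COM. NHSL1 went from 228 ± 7.49 to 282 ± 4.75 CPM (log2 0.26 ± 0.04, adjusted p = 0.00416), a call not made by limma on log2(FPKM + 1) (adjusted p = 0.159). PTPN14 went from 124 ± 4.21 to 167 ± 5.42 CPM (log2 0.37 ± 0.05, adjusted p = 0.000844). A count of a long row takes in more sequence, so these levels are not per length.

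AgNPs against BLANK asked what the particles alone changed. Of the 2805 members that passed the filter on low counts, 41 (1.46%) were called at an adjusted p below 0.05, 26 higher and 15 lower. Over all 73953 linear rows tested, 2.09% were called (0.863% higher, 1.23% lower). These shares are not matched for level, with which calls rose. Above an average log2 CPM of 4, 14.4% of members and 11.7% of RefSeq rows were called. Between 2 and 4 the shares were 4.38% and 1.14%, between 0 and 2 they were 0.308% and 0.247%, and under 0 they were 0.105% and 0.143%. The median log2 change was 0.02 among the members, 0.0338 among URS rows, -0.0342 among RefSeq rows and -0.017 over all rows. Libraries of both groups did not overlap for 629 members (22.4%), against 18.6% of all rows. A filter on low counts passes rows through their higher group, so counts cover only the rows that passed.

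The members higher in AgNPs included rows of NBPF1, a gene of the neuroblastoma breakpoint family with its repeated protein domain, whose promoter is printed above (gene at chr1:16562423-16613564). BGIR9606_269631 stood at 15.5, 14.8 and 15.5 CPM in BLANK, 47.5, 46.5 and 46.9 in AgNPs, 7.2, 9.4 and 11.7 in DOC, and 76.1, 83.1 and 73.2 in COM. The 4 groups did not overlap, with DOC lowest and COM highest. The log2 change was 1.58 ± 0.14 in AgNPs (adjusted p = 0.000434). BGIR9606_269628 of the same gene averaged 18.8 ± 1.03 CPM in BLANK, 41.3 ± 2.98 in AgNPs, 15.8 ± 0.413 in DOC and 77.8 ± 3.74 in COM (SD, n = 3), with a log2 change of 1.10 ± 0.07 in AgNPs (adjusted p = 2.77e-05). NBPF genes are near-identical copies, so how reads were divided among them is uncertain.

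ARHGAP9 (chr12:57472269-57488824), a GTPase-activating protein, had a member (BGIR9606_350529) that held between 91.0% and 95.4% of the gene's counts in the group means. It stood at 1.95, 1.98 and 1.84 CPM in BLANK and 6.51, 6.97 and 7.13 in AgNPs, a log2 change of 1.79 ± 0.13 (adjusted p = 6.26e-05). Each AgNPs library lay above each BLANK library. BGIR9606_404656, the only linear row of BGIG9606_65774, rose from 2.66, 2.29 and 2.15 CPM to 9.88, 9.47 and 9.50 (log2 1.98 ± 0.13, adjusted p = 4.28e-05). The SPMIP6 row BGIR9606_331435 (gene at chr9:34379019-34397810), from a gene for a microtubule inner protein of sperm, rose from 2.54 ± 0.37 to 8.73 ± 1.52 CPM (log2 1.74 ± 0.17, adjusted p = 0.000626). Both members of the lncRNA gene LOC101930053 rose, BGIR9606_330917 from 0.78 ± 0.246 to 5.29 ± 0.458 CPM (log2 2.72 ± 0.31, adjusted p = 0.00147) and BGIR9606_330909 from 0.789 ± 0.195 to 3.65 ± 0.307 CPM (log2 2.16 ± 0.30, adjusted p = 0.00455). The other rows of that gene went from 1.63 to 8.96 CPM beside BGIR9606_330917. Rows of BGIG9606_36135 and BGIG9606_53159 rose 2.40-fold and 2.48-fold (adjusted p = 0.0005 and 0.000407). All calls in this paragraph held in each of the 12 fits that left out 1 library.

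Other rises were less stable. The TACR1-AS1 row, antisense to the tachykinin receptor 1 gene, stood at 0.602, 0 and 0.506 CPM in BLANK and 7.92, 10.01 and 7.41 in AgNPs, and no library overlapped. Its call (log2 4.40 ± 0.90, adjusted p = 0.0396) was lost in 11 of 12 fits that left out 1 library (adjusted p up to 0.129), all but the one without BLANK 2. The MEGF6 row rose 2.95-fold (adjusted p = 0.0193), and that call was lost without AgNPs 1 or 3 or any one of the BLANK libraries (up to 0.103). The STC2 row, described with COM, passed at an adjusted p of 0.0499 and was lost in 11 fits, all but the one without DOC 1 (up to 0.208). The counting is not stated to use strand, so reads of an antisense gene and its partner cannot be told apart.

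Of the 15 members lower in AgNPs, the DANT1 row had the largest fitted change and is described with the usage test. The ANKRD18A row BGIR9606_331595 (gene at chr9:38566151-38620596), from an ankyrin repeat gene of which it held 69.1% in BLANK, stood at 120, 121 and 122 CPM in BLANK and 83.6, 89.2 and 95.9 in AgNPs (log2 -0.47 ± 0.05, adjusted p = 0.000898). Each AgNPs library lay below each BLANK library. The single row of BGIG9606_36214, BGIR9606_270215, fell from 39.2 ± 1.32 to 27.9 ± 1.42 CPM (log2 -0.53 ± 0.06, adjusted p = 0.00188). The row of SSTR5-AS1 (chr16:1064081-1078731), antisense to a somatostatin receptor gene, fell from 47.9 ± 4.15 to 32.5 ± 2.33 CPM (log2 -0.60 ± 0.07, adjusted p = 0.00179). A row of the Entrez gene 107987293 (BGIR9606_382905) fell from 54.6 ± 2.59 to 42.4 ± 0.404 CPM (log2 -0.40 ± 0.05, adjusted p = 0.0017). One row of HIVEP3, a zinc finger transcription factor, fell from 24.9 ± 0.82 to 16.3 ± 1.69 CPM (log2 -0.64 ± 0.10, adjusted p = 0.00925), and the other rows of HIVEP3 went from 112 to 74.9 CPM. These 5 calls held in every fit that left out 1 library. Calls on NREP, PEG10, the Entrez gene 112267885 and a second HIVEP3 row did not. NREP was lost without AgNPs 1 or 2 or BLANK 2 or 3 (up to 0.0666), and 112267885 without any one AgNPs library, BLANK 1 or BLANK 3 (up to 0.0944). PEG10 was lost in 11 fits, all but the one without DOC 1 (up to 0.155), and the second HIVEP3 row in 10, all but those without COM 2 or 3 (up to 0.145).

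**Figure D2:**
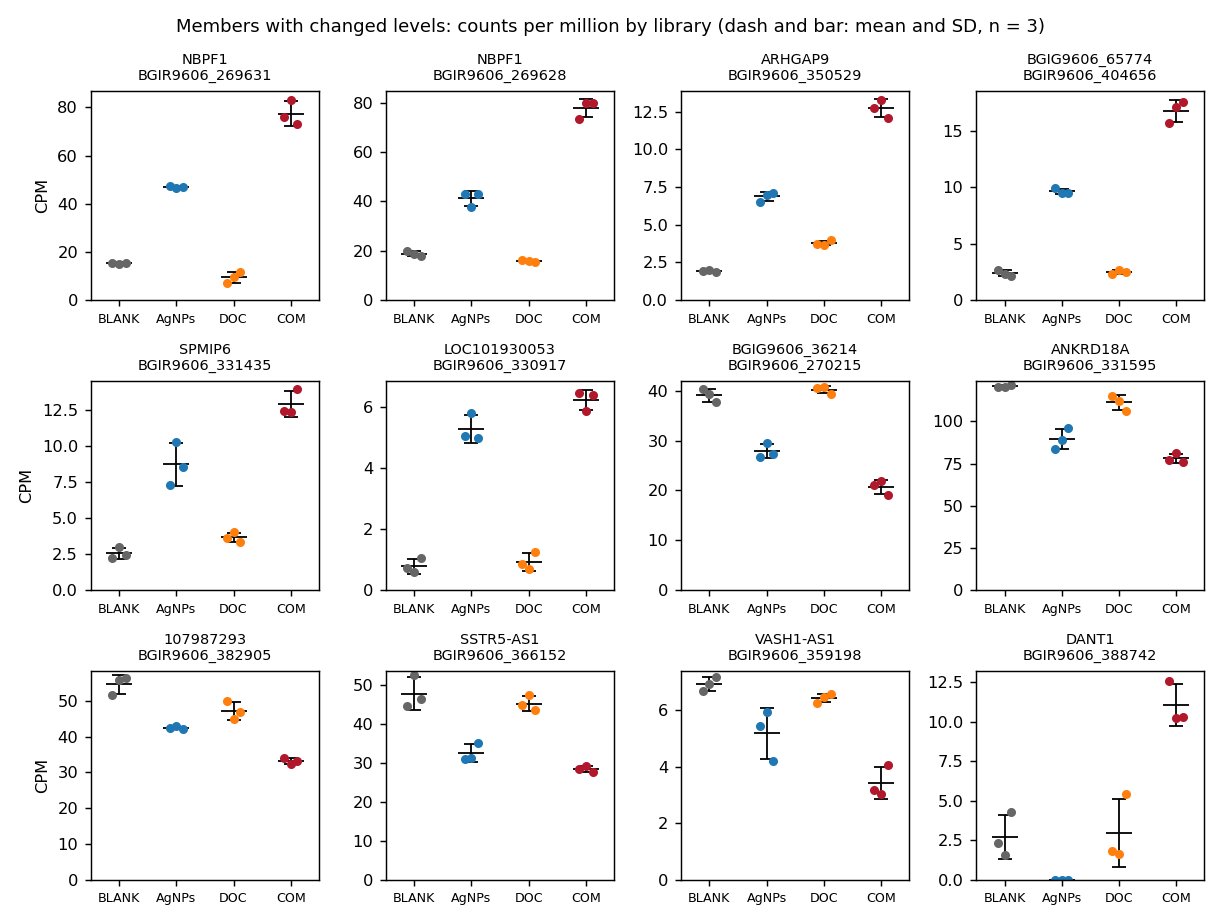
CPM (y axis, from 0) of 12 members in the 12 libraries, by group (x axis). Points are libraries, dashes and bars are the mean and SD (n = 3). Both NBPF1 rows, ARHGAP9, BGIG9606_65774, SPMIP6 and LOC101930053 are highest in COM and also higher in AgNPs than in BLANK, while BGIG9606_36214, ANKRD18A, 107987293, SSTR5-AS1 and VASH1-AS1 are lowest in COM. DANT1 is at or near 0 in AgNPs alone.

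DOC against BLANK gave few calls. Of 2805 members, 6 (0.214%) were higher and 0 lower, against 0.2% of all rows called (0.0581% higher, 0.142% lower). At an unadjusted p below 0.05, 130 were higher and 38 lower. DESeq2 called 29 higher and 19 lower, and limma on log2(FPKM + 1) called 9 and 1. An unadjusted p below 0.05 is passed by that proportion of rows even when nothing changed. No share over all rows is given for these counts, so they do not set the members apart from other rows. The 6 were rows of ARHGAP9 (log2 0.93 ± 0.12, adjusted p = 0.0274), LOC112267917 (0.85 ± 0.13, adjusted p = 0.0416), NBPF10 (0.51 ± 0.07, adjusted p = 0.0274), BGIG9606_56454 (0.45 ± 0.07, adjusted p = 0.0438), CHIC2 (0.43 ± 0.06, adjusted p = 0.0351) and NBPF19 (0.34 ± 0.05, adjusted p = 0.0438). The BGIG9606_56454 row, the only linear row of its gene, stood at 47.3, 53.0 and 49.4 CPM in BLANK and 66.8, 77.7 and 65.8 in DOC. It averaged 45.2 ± 1.77 in AgNPs and 53.4 ± 1.2 in COM, so DOC libraries were the highest. None of the 6 calls held in all fits without 1 library: CHIC2 was lost in all but those without AgNPs 1 or DOC 1 (up to 0.165), and the other 5 in all but the one without DOC 1 (up to 0.198). All 6 were lost in the fit that used only the BLANK and DOC libraries. The libraries did not overlap for 685 members (24.4%, against 16% of all rows), of which 536 were higher in DOC. The median log2 change was 0.107 among the members, 0.111 among URS rows, -0.0298 among RefSeq rows and 0.002 over all rows. The shift was thus not particular to the members.

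COM against BLANK changed the most members. Of 2805, 158 (5.63%) were called, 103 higher and 55 lower, while of all rows 6.82% were called (2.54% higher, 4.28% lower). By host type, 63 rose and 32 fell of 1552 tested in protein-coding genes, 17 and 14 of 553 in lncRNA genes, and 21 and 3 of 537 in BGIG genes. The libraries did not overlap for 980 members (34.9%, against 26.1% of all rows). The median log2 change was 0.045 among the members, 0.130 among URS rows, -0.0618 among RefSeq rows and -0.016 over all rows. A change of at least 2-fold was seen in 56 of the higher and 10 of the lower. Of the 158 calls, 82 held in every fit that left out 1 library. The treated groups were all compared with the same BLANK libraries, so their changes are given side by side and not as independent results.

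The BGIG9606_65774, ARHGAP9 and SPMIP6 rows had higher means in COM than in AgNPs. BGIR9606_404656 of BGIG9606_65774 reached 15.7, 17.1 and 17.6 CPM (log2 2.77 ± 0.14 against BLANK, adjusted p = 2.18e-06), the ARHGAP9 row 12.8, 13.3 and 12.1 CPM (log2 2.66 ± 0.13, adjusted p = 2.17e-06) and the SPMIP6 row 12.4, 12.3 and 13.96 CPM (log2 2.29 ± 0.18, adjusted p = 3.87e-05). In DOC alone the same rows averaged 2.49, 3.78 and 3.65 CPM. The BGIG9606_65774 and ARHGAP9 rows were also higher in COM than in AgNPs (adjusted p = 0.0208 and 0.0115), and the SPMIP6 row was not called there (adjusted p = 0.214). The LOC101930053 rows reached 6.25 ± 0.33 and 5.81 ± 0.452 CPM, changes of 7.67-fold and 6.99-fold (adjusted p = 0.000322 and 0.000373).

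Rows of STC2, TXN and NDRG1 rose in COM. The row of STC2, a secreted glycoprotein whose gene is a target of the stress factor ATF4, stood at 2.61, 2.16 and 2.50 CPM in BLANK and 8.05, 7.95 and 7.73 in COM (log2 1.65 ± 0.18, adjusted p = 0.000438). It held 2.16% of the gene's counts in COM, and the other rows of STC2 went from 117 to 358 CPM. The row of TXN, thioredoxin, went from 2.51 ± 0.277 to 6.28 ± 0.074 CPM (log2 1.26 ± 0.20, adjusted p = 0.00369), while the other TXN rows went from 116 to 141 CPM. The NDRG1 row, from a gene induced by hypoxia and other stress, averaged 6.11 ± 0.277 CPM in BLANK, 11.7 ± 0.869 in AgNPs, 10.3 ± 2.18 in DOC and 25.9 ± 1.93 in COM. It was higher in COM than in each other group (log2 2.03 ± 0.15 against BLANK, adjusted p = 3.51e-05; 1.13 ± 0.15 against AgNPs, adjusted p = 0.00871).

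Rows of NIBAN1, a stress-responsive protein, GYS1, muscle glycogen synthase, and PIR-FIGF, a readthrough unit, were scarce but rose 5.48-fold, 4.33-fold and 4.99-fold. NIBAN1 went from 0.514 ± 0.209 to 2.95 ± 0.343 CPM (log2 2.46 ± 0.44, adjusted p = 0.00799), GYS1 from 0.559 ± 0.143 to 2.54 ± 0.364 (2.11 ± 0.38, adjusted p = 0.00777) and PIR-FIGF from 0.338 ± 0.0681 to 1.78 ± 0.213 (2.32 ± 0.42, adjusted p = 0.00775). All other rows of GYS1 together went from 87.9 to 74.5 CPM, the opposite way. These 3 calls were lost without the filter on low counts (adjusted p = 0.0626, 0.0909 and 0.132). The TACR1-AS1 row averaged 0.369 ± 0.324 CPM in BLANK and 9.58 ± 0.954 in COM (log2 4.56 ± 0.91, adjusted p = 0.0142, lost without BLANK 3 at 0.0508).

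Among the members lower in COM, BGIR9606_270215 of BGIG9606_36214 stood at 40.3, 39.4 and 37.7 CPM in BLANK, 40.5, 40.8 and 39.4 in DOC, and 21.2, 21.9 and 19.1 in COM. DOC alone overlapped with BLANK, and COM lay below AgNPs too. The log2 change was -0.97 ± 0.06 against BLANK (adjusted p = 1.39e-05). VASH1-AS1, antisense to the vasohibin 1 gene, fell from 6.92 ± 0.253 to 3.43 ± 0.557 CPM (log2 -1.06 ± 0.18, adjusted p = 0.00587). VSTM5, an immunoglobulin-like membrane protein, had a row that fell from 3.17 ± 0.251 to 1.30 ± 0.228 CPM (log2 -1.34 ± 0.24, adjusted p = 0.00719). These calls held in the 12 fits without 1 library, although VSTM5 had an adjusted p of 0.0599 in the fit of BLANK and COM alone. A row of BGIG9606_53846, BGIR9606_392211, fell from 238 ± 1.67 to 181 ± 3.23 CPM (log2 -0.45 ± 0.07, adjusted p = 0.0025). All other rows of that gene together went the opposite way, by 0.43 as a log2 ratio of mean CPM. Calls on rows of DPYD-AS1, GRIA3 and DOCK2 were lost in all 12 of those fits, with adjusted p up to 0.143, 0.176 and 0.17. Lower calls on PLPPR5, TUBGCP3, LOC110091777 and GALNT18, and the higher call on SNHG29, were lost in 4, 6, 5, 8 and 10 of the 12. PLPPR5 was lost without BLANK 1 or 2 or COM 2 or 3 (up to 0.0855), LOC110091777 without any one BLANK library or COM 2 or 3 (up to 0.0979), and TUBGCP3 without any one BLANK library, COM 1 or 3 or DOC 3 (up to 0.109). GALNT18 was lost without any one BLANK or DOC library or COM 2 or 3 (up to 0.117), and SNHG29 in all fits but those without COM 3 or DOC 1 (up to 0.131).

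Adding DOC to the particles (COM against AgNPs) changed 26 members (0.927%), 18 higher and 8 lower, against 1.17% of all rows (0.354% higher, 0.818% lower). The libraries did not overlap for 583 (20.8%, against 16.7%). The median log2 change was 0.047 among the members, 0.0876 among URS rows, -0.0322 among RefSeq rows and -0.004 over all rows. BGIR9606_269628 of NBPF1 rose from 42.9, 37.9 and 43.1 CPM in AgNPs to 73.5, 79.9 and 80.0 in COM (log2 0.90 ± 0.07, adjusted p = 0.000618). The row of EAPP (chr14:34515938-34539701), an E2F-associated phosphoprotein, rose from 47.0 ± 0.493 to 67.2 ± 2.56 CPM (log2 0.50 ± 0.06, adjusted p = 0.0038). The row of 107987293 with the most counts fell from 187 ± 14.5 to 129 ± 8.86 CPM (log2 -0.55 ± 0.08, adjusted p = 0.0137), a call lost without AgNPs 2 or 3 (0.0513 and 0.0544). The lower call on 112267885 was lost without AgNPs 1 or 3 or COM 1 or 2 (up to 0.0553). That on VSTM5 was lost without any one AgNPs library, BLANK 2 or 3 or COM 2 or 3 (up to 0.082), and that on KCNMA1 without any one AgNPs library, BLANK 3 or COM 2 or 3 (up to 0.0874). DMXL2 was lost in all fits but those without DOC 1 or 2 (up to 0.151), and the higher call on RBCK1 in all 12 (up to 0.174).

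Adding particles to DOC (COM against DOC) changed 83 members (2.96%), 51 higher and 32 lower, against 3.72% of all rows (1.57% higher, 2.15% lower). The libraries did not overlap for 701 (25%, against 19.8%). The median log2 change was -0.058 among the members, 0.0028 among URS rows, -0.0445 among RefSeq rows and -0.034 over all rows. Of the 83 calls, 50 held in every fit that left out 1 library. The NBPF1 row BGIR9606_269631 was 8.11-fold higher (log2 3.02 ± 0.15, adjusted p = 5.66e-06). BGIR9606_270215 fell by 0.97 (adjusted p = 2.58e-05) and the HIVEP3 row BGIR9606_270483 by 0.90 (adjusted p = 0.000858) on the log2 scale. The row of CYTOR, a long noncoding RNA of the cytoskeleton, was 1.19-fold higher, with 69.3, 70.4 and 71.4 CPM in DOC and 84.0, 87.0 and 82.9 in COM (log2 0.25 ± 0.03, adjusted p = 0.00159). The TACR1-AS1 call (log2 4.66, adjusted p = 0.0213) was lost without any one COM or DOC library (up to 0.0956), and the VASH1-AS1 call (log2 -0.91, adjusted p = 0.0215) without COM 1 or 2 or any one DOC library (up to 0.0854). Lower calls on CEP83 and GRIA3 were lost in all 12 fits (up to 0.149 and 0.15).

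The interaction asks whether the DOC effect differed with and without particles. It was called for 2 members (0.0713%), against 0.0284% of all rows (0.0135% above 0, 0.0149% below), both above 0. At an unadjusted p below 0.05, 40 members were above 0 and 45 below, with no share over all rows to set them against. The EAPP row stood at 36.6, 40.0 and 41.1 CPM in BLANK, 47.5, 46.7 and 46.7 in AgNPs, 34.2, 30.6 and 30.6 in DOC, and 69.2, 68.2 and 64.3 in COM. DOC libraries lay below BLANK, and COM libraries above AgNPs. The interaction was 0.84 ± 0.08 on the log2 scale (adjusted p = 0.0222) and was lost without AgNPs 2 or 3, any one BLANK library, COM 2, or DOC 2 or 3 (up to 0.0824). For BGIR9606_269628 of NBPF1 it was 1.18 ± 0.09 (adjusted p = 0.0222), lost without AgNPs 3, any one BLANK library or DOC 3 (up to 0.0648).

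Beside NBPF1, other genes of the family had members, a group looked at after its values were seen. The family had 32 members in 8 genes, of which 31 were tested. In COM, 11 of 31 rose against BLANK and 0 fell, against 2.54% of all rows higher. These shares are not matched for level. Of all members with an average log2 CPM from 2 to 4, 43 of 434 were higher in COM, and above 4, 24 of 118. With reads divided among near-identical copies, the 31 rows are not independent. At an unadjusted p below 0.05, 18 were higher and 1 lower. DESeq2 called 11 higher and limma 13, with 0 lower in both. For these counts too, no share over all rows is given. All 3 NBPF1 members rose in AgNPs and in COM, and they made up all 3 AgNPs calls of the family. Members of NBPF10 and NBPF19 did not share 1 order. BGIR9606_272321 of NBPF10 averaged 36.7 ± 1.65 CPM in BLANK, 34.9 ± 1.47 in AgNPs, 53.9 ± 4.25 in DOC and 52.3 ± 2.89 in COM, high in both groups with DOC. The NBPF19 row BGIR9606_266709 averaged 45.5 ± 1.86, 46.9 ± 0.476, 59.2 ± 3.39 and 63.0 ± 2.62 CPM in the same order. BGIR9606_272320 of NBPF10, not called in any comparison, averaged 15.3, 15.5, 16.7 and 13.1 CPM, lowest in COM. BGIR9606_272327, called in COM against BLANK alone, averaged 1.47, 2.53, 3.15 and 4.28 CPM. The COM changes of BGIR9606_272321 and BGIR9606_266709 were 0.46 ± 0.07 (adjusted p = 0.00291) and 0.42 ± 0.05 (adjusted p = 0.000877) on the log2 scale. NBPF1 as a whole gene had 110 CPM in BLANK, 189 in AgNPs, 114 in DOC and 268 in COM, and NBPF10 had 162, 150, 194 and 183. Other genes with at least 3 members called in COM were SMUG1, a DNA glycosylase of base excision repair (3 of 5), and BGIG9606_36491 (6 of 9), all higher. As whole genes, SMUG1 had 36.6 CPM in BLANK and 51.4 in COM, while BGIG9606_36491 had 298 and 296.

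A second test asked whether a member's share of its own gene changed. It covered 2176 members in genes with several tested rows and called 1 in AgNPs, 0 in DOC, 0 in COM, 1 in COM against AgNPs, 3 in COM against DOC and 2 for the interaction. Of all rows, 0.0745%, 0.118%, 0.329%, 0.258%, 0.238% and 0.188% were called, in that order. At an unadjusted p below 0.05, 11 members passed in DOC and 15 in COM, and limma on log ratios called 0 and 7. For these counts no share over all rows is given. The AgNPs call was on DANT1 (chrX:115840964-115905527), a noncoding gene beside the DXZ4 repeat. BGIR9606_388742 stood at 2.34, 1.55 and 4.27 CPM in BLANK, 1.80, 1.62 and 5.41 in DOC, and 12.6, 10.2 and 10.3 in COM. All 3 AgNPs libraries had under 1 count. The level was at least 11.8-fold lower in AgNPs than in BLANK (adjusted p = 0.0052) and at least 48.0-fold lower than in COM (adjusted p = 0.00556), taking 3 counts per library as the floor. Its share of the gene was 33.3% ± 12 in BLANK and 65.4% ± 2.28 in COM, and the other DANT1 rows stayed between 3.90 and 6.36 CPM in the group means (usage adjusted p = 0.00792 in AgNPs). The lower level in AgNPs was not called by limma (adjusted p = 0.185), in the fit of AgNPs and BLANK alone (0.0727) or with a spread estimated for BGIR rows alone (0.125).

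The usage calls in COM against DOC were BGIR9606_269631 of NBPF1, at 8.26% ± 1.75 of its gene in DOC and 28.9% ± 1.25 in COM (usage adjusted p = 7.84e-06), and rows of CCDC200 and SEPTIN7P2. The CCDC200 row BGIR9606_371572 was at 0 in all DOC libraries and at 10.2, 12.9 and 12.9 CPM in COM, at least 74.5-fold above the DOC floor (usage adjusted p = 0.0163). BLANK had 0, 0 and 1.68 CPM and AgNPs 2.81, 0 and 4.95, so libraries of one group ranged from 0 to several CPM. The SEPTIN7P2 row was at 0 in DOC and between 2.27 and 3.64 CPM in COM (usage adjusted p = 0.0186), with 7.91 CPM in AgNPs 3 and 0 in the other AgNPs libraries. Neither was called on level (adjusted p = 0.15 and 0.334), and limma did not call either share (0.231 and 0.405). The row BGIR9606_388752 of BGIG9606_53159 was called for the interaction (usage adjusted p = 0.0366), with at most 0.0155 CPM in DOC and 2.45 to 3.70 CPM in COM.

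Called members mostly moved with their genes. In COM against BLANK, 135 called members had at least 1 CPM on the other rows of their gene. The gene's other rows went the same way for 114 of them (71 both higher, 43 both lower), while 13 members were higher with the rest lower and 8 the opposite. Sign alone was counted, rows of 1 gene were counted separately, and some of these rests hardly moved. Beside the 6 called rows of BGIG9606_36491 the rest changed by -0.0275 to -0.0168 on the log2 scale, and beside the KNDC1 row by 0.0027. The median size was 0.797 for the members and 0.37 for the rest of the gene, on the log2 scale. Members were chosen here for passing the test, which alone favours large values over the rest of the gene. In AgNPs 31 of 32 went the same way, in DOC 3 of 3, in COM against AgNPs 18 of 19 and in COM against DOC 68 of 73. Values of an uncalled member could differ from those of its gene: the DNAJB1 row averaged 0.649 ± 0.256 CPM in BLANK and 0.484 ± 0.188 in COM (log2 -0.47 ± 0.53, adjusted p = 0.803), while the other rows of this heat shock co-chaperone went from 162 to 337 CPM.

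**Figure D3:**
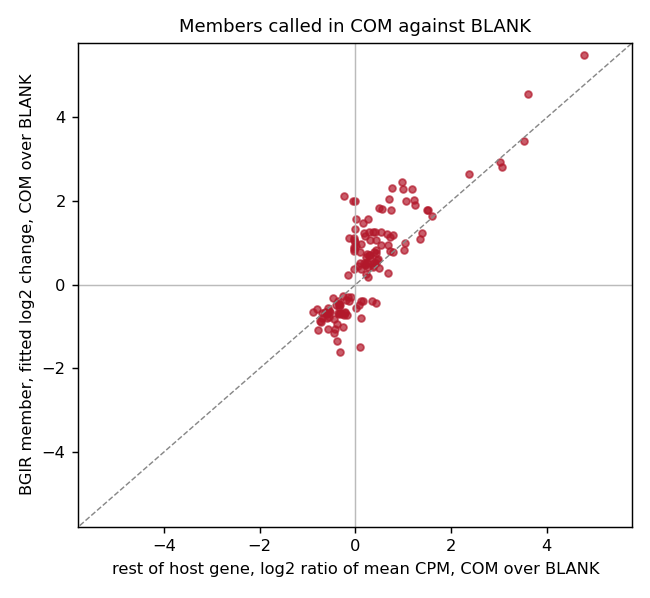
Fitted log2 change of each member called in COM against BLANK (y axis) against the log2 ratio of mean CPM of the other rows of its gene (x axis), for the 135 members whose gene had at least 1 CPM on other rows. Points are members, and the dashed line marks equal change. In 71 points both changes are above 0 and in 43 both are below.

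How often members were called rose with their level. In AgNPs, 0.105% of members with an average log2 CPM under 0 were called, 0.308% between 0 and 2, 4.38% between 2 and 4, and 14.4% above 4. RefSeq rows of the last pair of classes were called in 1.14% and 11.7%, and URS rows in 1.46% and 8.78%. In COM against BLANK, 0.735%, 3.0%, 14.5% and 41.5% of members were called in the same classes. RefSeq rows were called there in 0.43%, 1.2%, 5.67% and 32.0%, and URS rows in 0.549%, 2.17%, 10.9% and 30.9%. The common biological coefficient of variation was 0.151 for BGIR rows, 0.349 for URS rows and 0.934 for RefSeq rows. Members of at least 5000 bases implied length gave 19 higher and 17 lower calls in COM among 104, and those under 500 bases gave 10 and 1 among 358, beside 6.82% called among all rows. A long row needs more counts to reach 1 FPKM, so length and level go together, and among members with an average log2 CPM above 4 the called share in COM was 41.5%, all lengths together. The part of length apart from level was not tested.

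**Figure D4:**
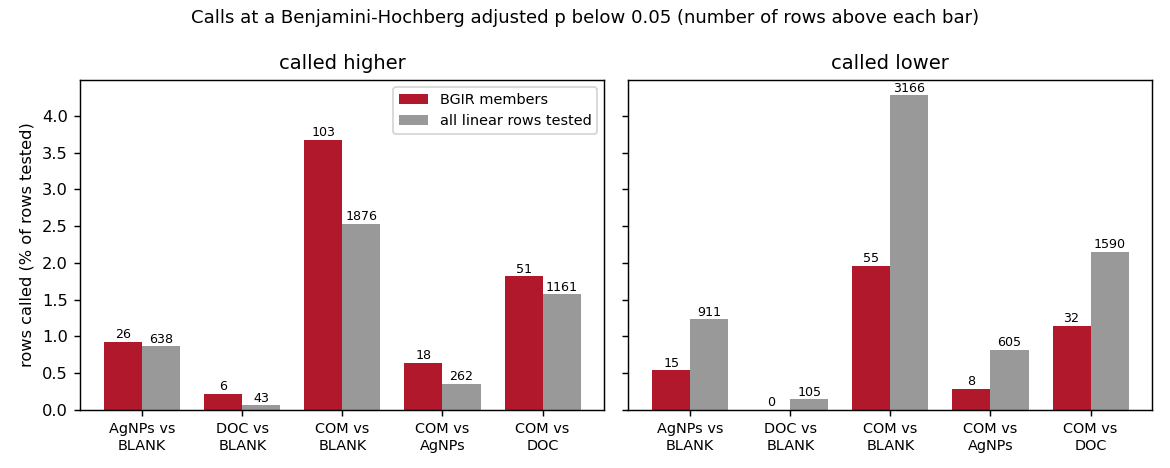
Percent of tested rows called higher (left) and lower (right) at an adjusted p below 0.05 in 5 comparisons (x axis), for the 2805 tested members (red) and all 73953 linear rows (grey). Numbers above the bars are rows called. Members and all rows are not matched for level. In COM against BLANK the bars for lower calls stand for 55 members and 3166 rows.

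Host gene lists showed few members. Over all rows 6.82% were called in COM against BLANK and 3.72% in COM against DOC. The lists had too few tested members to set against these shares. Of 36 NRF2 and metal response symbols, 4 had a member and 3 were tested: TXN rose in COM and in COM against DOC, and rows of TALDO1, a pentose phosphate enzyme (0.794 to 2.02 CPM), and AKR1C2 (0.456 to 0.937 CPM) were not called by edgeR in COM. The TALDO1 row (log2 1.29, adjusted p = 0.0714 by edgeR) was called higher in COM by DESeq2 and limma. Of 34 ATF4 targets, 2 had a tested member: STC2 rose, and the SLC7A5 row, from an amino acid transporter gene, went from 4.92 ± 0.143 to 7.37 ± 0.442 CPM (adjusted p = 0.09) and was called by DESeq2 and limma but not by edgeR. Among 17 snoRNA host genes 8 members were tested and SNHG29 alone was called in COM (log2 0.97 ± 0.23, adjusted p = 0.0317). That call was lost in 10 of 12 fits that left out 1 library, and without the filter on low counts (adjusted p = 0.198, edgeR). Of 5 tested members of nuclear and long noncoding RNAs, CYTOR was called in COM against DOC, and both MALAT1 rows, with 1.05% and 0.383% of that gene's counts, were not called. The heat shock, splicing factor and mitosis lists had 3, 3 and 2 tested members with 0 calls by edgeR, DESeq2 or limma, and 0 at an unadjusted p below 0.05 in any comparison. The autophagy list had no tested member and the immediate early list no member.

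MicroRNA host genes, transcripts whose introns or exons carry microRNA precursors, hosted 19 members in 12 genes, a group chosen after values were seen. Of 11 tested, 1 rose and 2 fell in COM, against 2.54% of all rows higher and 4.28% lower, too few to set against these shares. The MIRLET7BHG row BGIR9606_385552 (gene at chr22:46085997-46113928, GRCh38.p14) held 36.8% of its gene's counts. It stood at 58.0, 64.4 and 62.8 CPM in BLANK, 53.8, 52.6 and 51.2 in AgNPs, 70.2, 67.0 and 68.7 in DOC, and 45.1, 40.3 and 42.2 in COM. The 4 groups did not overlap: DOC was highest and COM lowest. The fall in COM was 0.59 ± 0.05 on the log2 scale against BLANK (log2 -0.59, adjusted p = 7.24e-05) and larger against DOC (log2 -0.70 ± 0.05, adjusted p = 4.4e-05), and both held in all 12 fits without 1 library. The smaller fall in AgNPs (log2 -0.27 ± 0.05, adjusted p = 0.0224) was lost without BLANK 2 or 3 or any one AgNPs library (up to 0.107). COM against AgNPs (log2 -0.32 ± 0.05, adjusted p = 0.0178) was lost without AgNPs 1 or 2 or COM 2 or 3 (up to 0.0678). The other rows of MIRLET7BHG went from 113 ± 3.52 CPM in BLANK to 64.6 ± 2.32 in COM. The gene carries let-7a and let-7b, whose sequences and shared seed are printed above; mature microRNAs were not measured.

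The MIR210HG row BGIR9606_339385 (gene at chr11:565657-568457) stood at 1.95, 1.94 and 1.63 CPM in BLANK and 3.53, 3.97 and 4.001 in COM. The groups did not overlap, and the row was higher in COM (log2 1.01 ± 0.23, adjusted p = 0.0259), a call lost without any one BLANK or COM library (up to 0.115). The MIR550A3HG row BGIR9606_319497 fell from 9.46 ± 0.0941 to 5.91 ± 1.35 CPM (log2 -0.73 ± 0.18, adjusted p = 0.0388), lost in 9 of 12 fits, all but those without AgNPs 1 or 2 or COM 3 (up to 0.124).

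**Figure D5:**
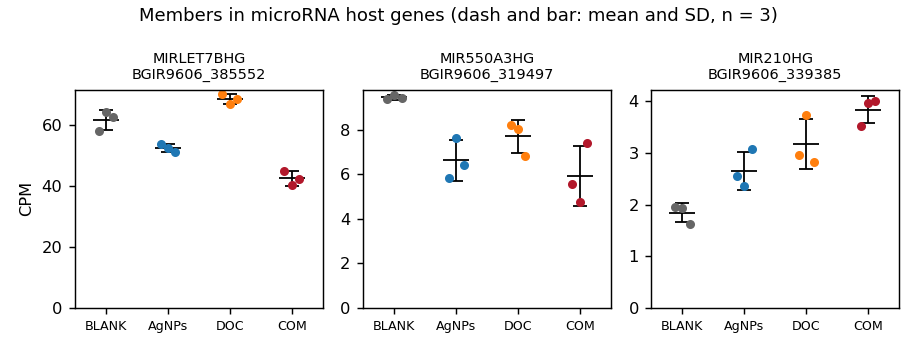
CPM (y axis, from 0) of the 3 members in microRNA host genes called in COM against BLANK, by library and group (x axis). Points are libraries, dashes and bars are the mean and SD (n = 3). MIRLET7BHG is highest in DOC and lowest in COM, from 40.3 to 45.1 CPM there.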

How the data were processed

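RNA of 12 PC3 libraries was sequenced and processed by the authors. HISAT2, Bowtie2 2.2.5, RSEM and GRCh38 are named in the submitters' processing notes, without roles. The authors deposited expected counts for each transcript, which were rounded here for tests. The deposited expression columns hold FPKM on linear rows, as worked out from the values, and were used for implied lengths and for limma on log2(FPKM + 1). All 73953 linear rows that passed filterByExpr were fitted together with edgeR 4.0.16 (R 4.3.3): TMM normalisation, robust quasi-likelihood, 1 coefficient per group, two-sided tests, Benjamini-Hochberg adjustment over all rows. Errors of log2 changes are standard errors of the fit. Usage was tested with edgeR's diffSpliceDGE. CPM is relative to linear counts. DESeq2 1.42.0 and limma 3.58.1 were alternatives. The p-values printed come from these fits and not from deposited columns. The authors' group means and the circular rows were not used. Named members are the 12 most abundant, the called members with the largest changes at an average log2 CPM of at least 0 whose groups did not overlap (up to 10 each way against BLANK, up to 5 otherwise), up to 3 per host gene list and those called for usage. Other genes were chosen after their values were seen. The members and lists were chosen with earlier results of these data known. Depth per library was 10996446 to 22769479 linear counts.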

Additional observations from a re-analysis of the deposited data

Results flagged for a closer look

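The test of whether the DOC effect differed with and without AgNPs called 2 members. The interaction on the log2 scale was 1.18 ± 0.09 for BGIR9606_269628 of NBPF1 and 0.84 ± 0.08 for BGIR9606_358167 of EAPP (edgeR's quasi-likelihood test, adjusted p = 0.0222 for both). With the replicate number as a block the adjusted p was 0.203 and 0.27. Of these 2 calls, 0 held in all 12 fits that left out 1 library. The other NBPF1 members were not called. BGIR9606_269631 had an interaction of 1.44 ± 0.20 (adjusted p = 0.0848, edgeR) and BGIR9606_269632 of 0.30 ± 0.25. The cause was not tested.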

How the results depend on the processing

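Numbers of members called moved with the tool, the spread estimate, the filter and the libraries used. Shares of all rows called are not given for the settings below. These counts therefore do not show how members stood against all rows there. In the order AgNPs (41), DOC (6), COM (158), COM against AgNPs (26) and COM against DOC (83), fits of both groups' libraries alone called 19, 0, 88, 9 and 41, and a spread trend per identifier class 92, 37, 381, 71 and 177. DESeq2 called 76 in AgNPs, 48 in DOC, 67 in COM against AgNPs and 18 for the interaction (2). Limma called 10 in DOC, 248 in COM and 45 in COM against AgNPs. No filter on low counts gave 1 in DOC, 93 in COM and 15 in COM against AgNPs. With circular rows added there were 3 in DOC and 7 for the interaction, with a filter on mean CPM 4 for the interaction, with the class-wise spread 6, and with thinned libraries 3 in DOC. Leaving out 1 library gave 24 to 38 in AgNPs, 0 to 15 in DOC, 93 to 143 in COM, 14 to 31 in COM against AgNPs, 54 to 75 in COM against DOC and 0 to 3 for the interaction. Usage calls ranged over these fits from 0 to 2 in AgNPs, 0 to 1 in DOC, 0 to 2 in COM, 1 to 2 in COM against AgNPs, 2 to 5 in COM against DOC and 1 to 4 for the interaction. Limma on log ratios called 2, 7, 6 and 1 in AgNPs, COM, COM against DOC and the interaction.

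Replicate numbers showed no pairing of the samples. For this, each row's group mean was subtracted from its log2 CPM, and libraries of different groups were correlated on what remained. Same-numbered libraries gave r = -0.0185 to 0.0266, and libraries with different numbers gave r = -0.021 to 0.0289. With the replicate block, calls numbered 28 in AgNPs, 0 in DOC, 110 in COM, 16 in COM against AgNPs, 61 in COM against DOC and 0 for the interaction, and usage calls 2 in COM and 1 for the interaction. As FPKM sums, the BGIR share differed by 0.0209 percentage points in DOC, -0.104 in COM, -0.0606 in COM against AgNPs and -0.125 in COM against DOC. Leaving out 1 library, the count share differed by -0.0257 to 0.0245 in AgNPs, 0.0753 to 0.123 in DOC, -0.0103 to 0.0372 in COM, -0.0074 to 0.0428 in COM against AgNPs and -0.0996 to -0.0771 in COM against DOC. A count of 3 was worth up to 0.273 CPM in the shallowest library, the limit for scarce members. No called member that was named changed direction under any setting run.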
